A study of Mus musculus with 30 samples.

Results

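The subunits of voltage-gated, potassium and pacemaker ion channels were followed across 3 treatment groups of mouse forebrain. The genes were taken by name: symbols that begin with Kcn, Hcn, Cacna, Cacnb or Cacng, and the Scn genes of sodium channels, on probe sets to which the array's annotation gives a single symbol. A gene was kept where the mean of its brightest probe set was at least 4 on the log2 scale over all arrays, and that probe set stood for the gene. Of 96 such genes on 139 probe sets, 53 genes passed and 43 did not. They were 53 of 7576 genes with a tested probe set of a single symbol. The least bright genes inside the threshold were Kcna6 (mean log2 value 4.30), Cacna1a (4.37), Kcnk13 (4.63) and Kcnmb2 (4.84). The brightest outside it were Kcns2 (3.86), Kcna3 (3.78), Cacng6 (3.70) and Kcne3 (3.63).

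Each array held the RNA of a single male C57BL mouse, an inbred laboratory strain, hybridised to the Affymetrix MOE430A array. The untreated group held 10 mice, another 10 had clozapine at 12 mg/kg/day and 10 had haloperidol at 1.6 mg/kg/day in their drinking water for 12 weeks. All animals lived alone in their cages under a 12 hour light cycle, and the labels give an age of 4 weeks, which cannot hold after the treatment and may be the age at its start. Clozapine is an atypical antipsychotic with many receptor targets, and haloperidol is a typical antipsychotic that mainly blocks dopamine D2 receptors. The source labels name the right hemisphere and the tissue label the left. In the haloperidol protocol the remark on the dose names clozapine. Markers of neurons (8 of 8 listed genes), astrocytes (8 of 8), oligodendrocytes (7 of 8), microglia (7 of 8), striatal neurons (7 of 10) and cortical neurons (6 of 8) passed the same threshold. So did 4 of 7 olfactory bulb markers and 4 of 8 on a cerebellar list, Cbln1, Calb1, Zic1 and Neurod1. Gabra6, Cbln3, Pcp2 and Barhl1 of the cerebellar list did not pass.

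Ion channels set how neurons fire. Voltage-gated sodium channels start the action potential, voltage-gated potassium channels end it and set the interval to the next, and voltage-gated calcium channels turn it into transmitter release and calcium signals. Inward rectifier and two-pore potassium channels hold the resting potential, calcium-activated potassium channels shape the afterpotential, and HCN channels carry the hyperpolarisation-activated pacemaker current. Most channels are built from pore-forming alpha subunits and from auxiliary subunits that set their number at the membrane and their gating.

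None of the 53 genes differed between treatment groups after correction. With limma over 12944 probe sets and Benjamini-Hochberg adjustment at 0.05, 0 channel genes were called in clozapine minus control, where 0% of all probe sets were called, 0 in haloperidol minus control (0% of all) and 0 in clozapine minus haloperidol (0% of all). An F test over the 3 groups also called 0 channel genes and 0% of all probe sets, with 3 channel genes and 2.61% of all at an unadjusted p under 0.05. The smallest adjusted p of a channel gene was 0.9997, 0.9999 and 0.965 in the 3 comparisons. Before adjustment, p was under 0.05 for 2 of 53 channel genes in clozapine minus control (4.35% of all probe sets), for 4 in haloperidol minus control (2.3%) and for 3 in clozapine minus haloperidol (3.14%). The 3 comparisons share their groups, so their values are not independent of each other.

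The channel medians were near 0 in all comparisons. The median difference over the channel genes was -0.082 on the log2 scale in clozapine minus control, with 37 of 53 lower, beside a median of 0.023 over all probe sets tested, of which 44.7% were lower. Its sign was not the same in all mice: within replicate numbers 1 to 6 the median was 0.051 with 21 of 53 lower, and within 7 to 10 it was -0.16 with 37 lower, a split chosen after the values were seen. Of 8 neuron markers 6 were lower in clozapine than in control, with a median of -0.079. In haloperidol 6 of the 8 were also lower than in control, with a median of -0.082. The part of these markers was not tested. In haloperidol minus control the channel median was -0.048 with 32 of 53 lower, beside -0.030 and 56.5% lower over all probe sets. In clozapine minus haloperidol it was -0.058 with 30 lower, beside 0.050 and 39.3%. The mean over the 53 channel genes was 7.48 ± 0.24 (SD, n = 10) in control, 7.36 ± 0.19 in clozapine and 7.43 ± 0.27 in haloperidol mice. The groups overlapped in this mean, with 7.04 to 7.70 in control, 7.05 to 7.64 in clozapine and 6.82 to 7.70 in haloperidol. In bulk tissue, fewer cells of a type and less RNA per cell cannot be told apart.

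**Figure D1:**
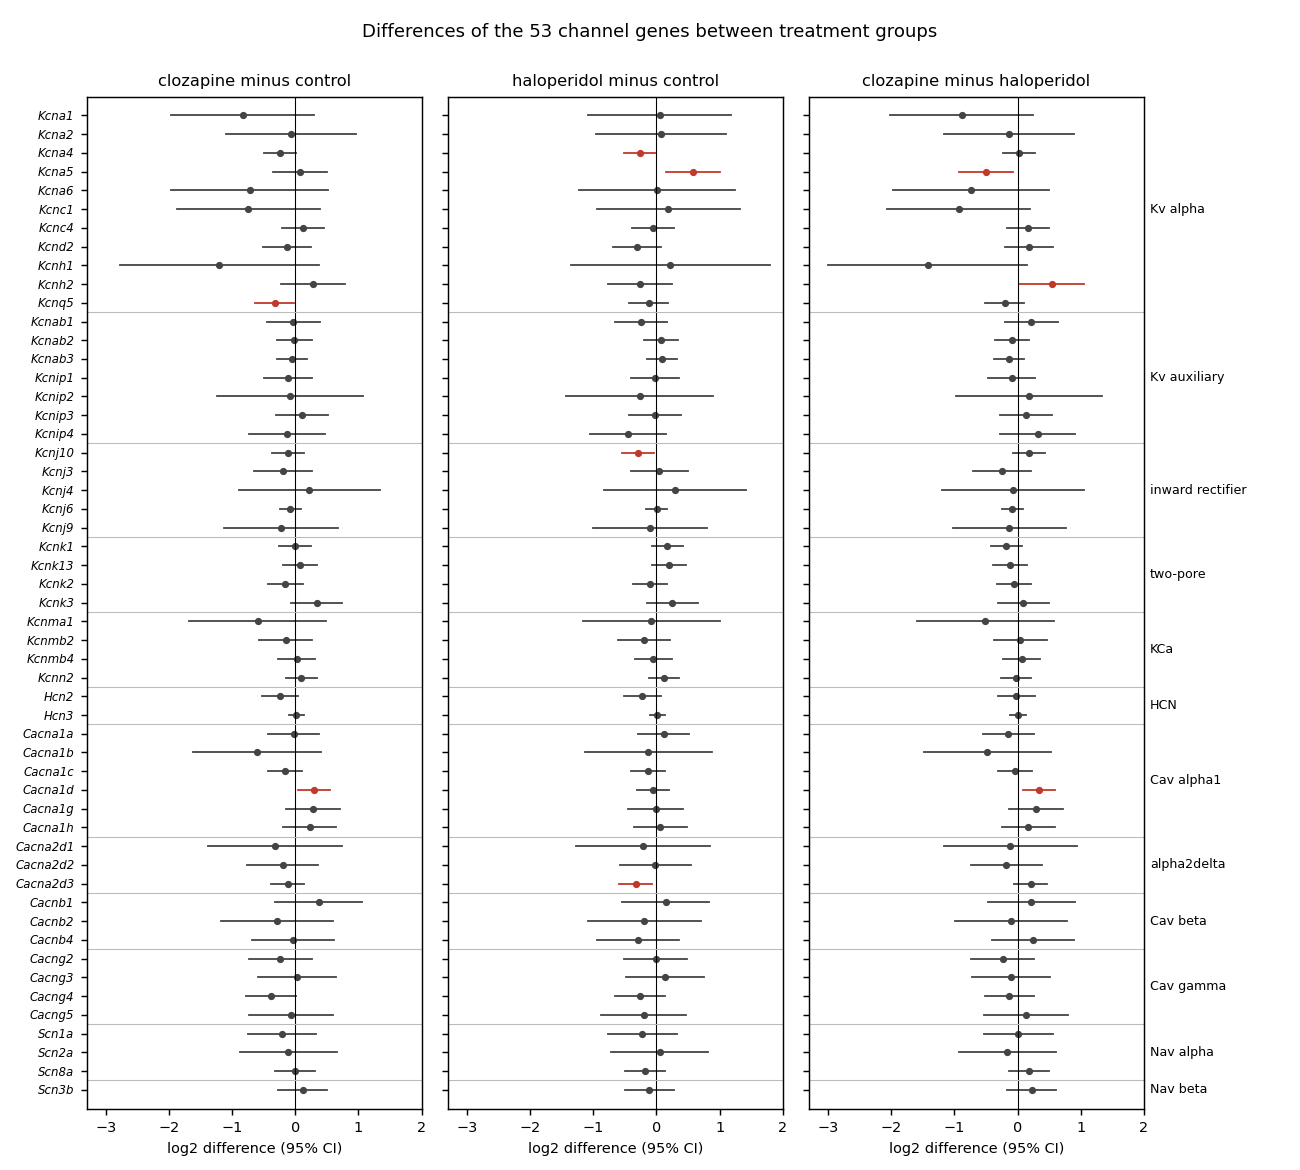
Log2 differences (x axis, points) with 95% confidence intervals (lines) of the 53 channel genes (y axis, grouped by class) in the 3 comparisons, from limma over 30 arrays. Red marks an unadjusted p under 0.05, which 2, 4 and 3 genes had, and 0 genes passed the adjusted threshold; intervals are widest for genes such as Kcnh1 and Kcna6.

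Voltage-gated potassium channel alpha subunits, 11 of the 20 on the array, held most of the small p-values. In this class 8 of the 11 were lower in clozapine than in control mice, with a class median of -0.25. Kcnq5, a subunit of the M-current that damps repetitive firing, ran from 7.04 to 8.14 (median 7.70) in control, from 6.62 to 7.64 (median 7.35) in clozapine and from 6.99 to 7.93 (median 7.56) in haloperidol mice. The groups overlapped, and 9 of 10 clozapine mice were below the control mean. The difference was -0.33 (SE 0.15, p = 0.0402 before and 0.9997 after adjustment by limma; permutation p = 0.0466).

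Kcna4, the Kv1.4 subunit of rapidly inactivating A-type current, had lower means in both drug groups, of which the clozapine group did not pass an unadjusted p of 0.05. Its values lay between 5.98 and 7.08 (median 6.48) in control, 5.94 and 6.71 (median 6.28) in clozapine and 5.87 and 6.57 (median 6.30) in haloperidol mice. The difference from control was -0.25 (SE 0.12, limma p = 0.0530) in clozapine and -0.27 (SE 0.12, limma p = 0.0381) in haloperidol. Both drugs were compared with the same control mice, in which the 4 highest values of the gene stood above all clozapine values.

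Kcna5, the Kv1.5 subunit of delayed rectifier current, had the smallest p-value of any channel gene in haloperidol minus control. It ran from 4.09 to 5.22 (median 4.82) in control, from 3.75 to 5.42 (median 5.02) in clozapine and from 4.86 to 6.32 (median 5.13) in haloperidol mice. All 10 haloperidol mice lay above the control mean, but the ranges overlapped. The difference from control was 0.58 (SE 0.21, p = 0.00992 before and 0.9999 after adjustment by limma; permutation p = 0.00616). Clozapine minus haloperidol gave -0.50 (SE 0.21, limma p = 0.0239; permutation p = 0.0511).

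Kcnh2 encodes the ERG potassium channel, which repolarises heart cells and is the channel known for block by many drugs, haloperidol among them. Its log2 values were 4.85 to 5.89 (median 5.48) in control, 4.72 to 6.47 (median 5.64) in clozapine and 3.47 to 6.23 (median 5.27) in haloperidol mice. The drug groups overlapped, and the lowest haloperidol value lay far under the rest. Clozapine minus haloperidol was 0.54 (SE 0.25, limma p = 0.0372; permutation p = 0.0786), and 0.35 without haloperidol mouse 7. Neither drug differed from control past an unadjusted p of 0.05.

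Kcnh1, the EAG channel of brain, had the largest differences and the widest spread of the 53 genes. It ran from 5.23 to 8.78 (median 6.34) in control, from 1.76 to 8.60 (median 6.09) in clozapine and from 4.17 to 9.11 (median 7.08) in haloperidol mice. The 3 lowest values of all belonged to clozapine mice 7, 8 and 9, and the groups overlapped. Clozapine minus control was -1.21 (SE 0.77, limma p = 0.128) and clozapine minus haloperidol -1.43 (SE 0.77, limma p = 0.0745), with intervals from -2.78 to 0.37 and from -3.00 to 0.15.

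By their brightest probe sets, the other Kv alpha genes did not pass an unadjusted p of 0.05 in any comparison. Kcna1, the axonal Kv1.1 subunit, ran from 7.43 to 10.47 (median 9.44) in control, 4.44 to 10.23 (median 8.37) in clozapine and 7.37 to 10.60 (median 9.34) in haloperidol mice. Kcnc1, the Kv3.1 subunit of fast-spiking interneurons, ran from 7.96 to 10.77 (median 9.94), 5.41 to 10.72 (median 8.94) and 6.85 to 10.96 (median 9.83) in the same order. For both genes the clozapine median was the lowest of the 3, and the ranges overlapped. Clozapine minus control was -0.83 (SE 0.55) for Kcna1 and -0.75 (SE 0.56) for Kcnc1, and -0.39 and -0.365 without clozapine mouse 7. Kcna2, the Kv1.2 partner of Kv1.1 along axons, differed by -0.066 (SE 0.50) and Kcna6 by -0.73 (SE 0.61). Kcnd2, the Kv4.2 subunit of dendritic A-type current, differed by -0.13 (SE 0.19) in clozapine and -0.30 (SE 0.19) in haloperidol. Kcnc4, the Kv3.4 subunit, differed by 0.12 (SE 0.16) and -0.048 (SE 0.16).

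**Figure D2:**
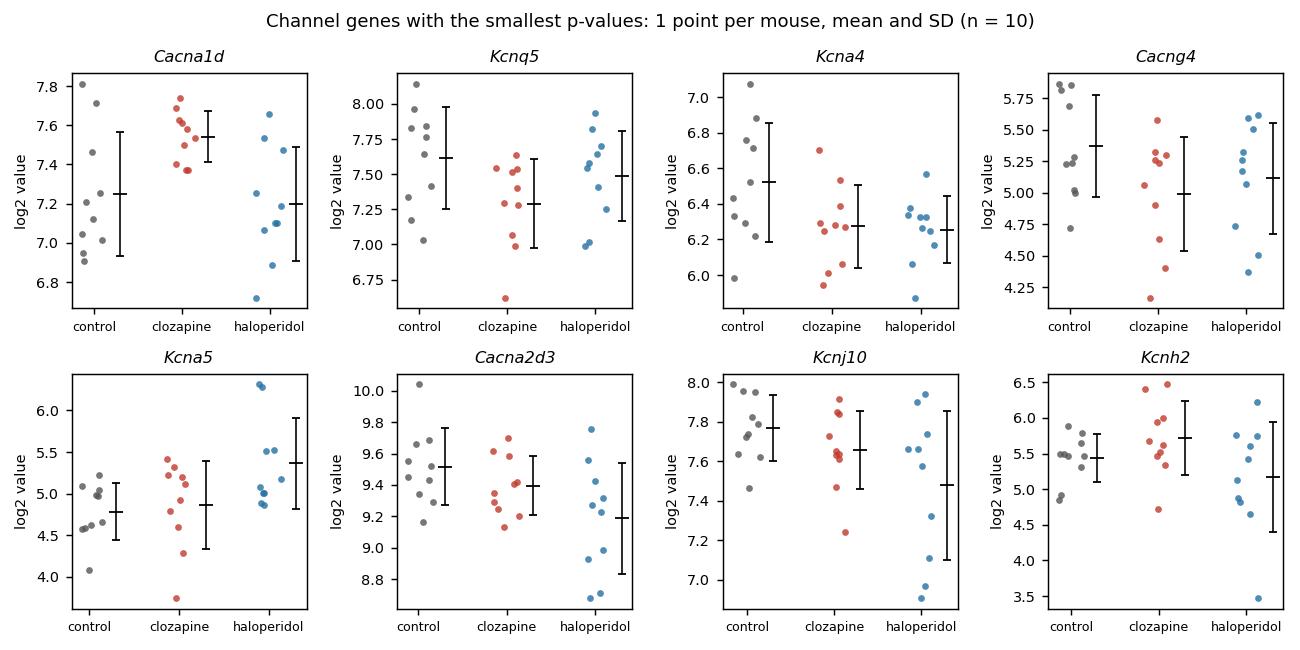
Log2 values (y axis) of 8 channel genes with small unadjusted p-values, 1 point per mouse in control, clozapine and haloperidol groups (x axis), with the mean and SD (n = 10). All 10 clozapine mice were above the control mean for Cacna1d and all 10 haloperidol mice for Kcna5, and the groups overlapped in every panel.

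The stretches upstream of 4 genes are shown as examples: Kcnh1, Kcnc1 and Cacna1b spread widely between mice, and Kcna5 had the smallest p-value in haloperidol minus control. Each is the 250 bases before the annotated start, read 5′ to 3′ on the gene's strand, from the RefSeq promoter table on GRCm38.p6. They lie at chr1:192190527-192190776 (plus strand), chr7:46396218-46396467 (plus), chr2:24763153-24763402 (minus) and chr6:126535556-126535805 (minus). Capitals mark a GC box (GGGCGG) or a CCAAT box (CCAAT) on either strand.
Kcnh1: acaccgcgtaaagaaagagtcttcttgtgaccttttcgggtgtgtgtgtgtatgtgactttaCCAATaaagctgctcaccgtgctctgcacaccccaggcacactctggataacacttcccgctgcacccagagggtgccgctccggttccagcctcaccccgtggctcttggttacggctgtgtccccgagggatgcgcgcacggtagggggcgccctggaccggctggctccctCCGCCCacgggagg
Kcnc1: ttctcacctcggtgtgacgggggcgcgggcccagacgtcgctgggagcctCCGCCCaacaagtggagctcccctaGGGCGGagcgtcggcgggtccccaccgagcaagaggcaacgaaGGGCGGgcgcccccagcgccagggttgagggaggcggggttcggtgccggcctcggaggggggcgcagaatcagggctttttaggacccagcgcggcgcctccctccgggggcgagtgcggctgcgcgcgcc
Cacna1b: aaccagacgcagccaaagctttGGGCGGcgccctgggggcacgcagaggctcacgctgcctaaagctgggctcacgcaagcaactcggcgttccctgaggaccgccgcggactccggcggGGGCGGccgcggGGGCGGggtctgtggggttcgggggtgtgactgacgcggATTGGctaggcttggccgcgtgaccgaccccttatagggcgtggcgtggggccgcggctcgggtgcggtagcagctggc
Kcna5: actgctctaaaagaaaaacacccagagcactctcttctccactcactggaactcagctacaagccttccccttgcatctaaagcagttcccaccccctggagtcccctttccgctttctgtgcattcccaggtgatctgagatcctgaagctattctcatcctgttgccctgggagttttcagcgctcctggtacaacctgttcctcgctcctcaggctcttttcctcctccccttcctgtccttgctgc

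The promoter table held 43 of the 53 channel genes, 27 of them with a single window. A GC box lay in 59.3% of these 27 windows and in 32.7% of all 32851 windows of the same length, and a CCAAT box in 25.9% and 33.8%. TATAAA, the core of the TATA box, was in 3.7% of the channel windows and 12.4% of all, the E-box CACGTG in 0% and 6.02%, and the cyclic AMP response element TGACGTCA in 0% and 1.55%. All were searched on both strands, and no motif contains another. The median GC content was 65.2% in the channel windows and 52.4% in all. The channel windows came only from genes with a single window. All windows included those of genes with several, and were not limited to genes on the array, so these sets are unlike. A match shows letters only. In the window of Kcna5 no GC box or CCAAT box was found. That of Kcnh1 held 1 GC box and 1 CCAAT box, and those of Kcnc1 and Cacna1b each held 3 GC boxes. Whether a motif goes with spread or treatment was not tested.

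Auxiliary subunits of Kv channels, 7 of the 12 on the array, differed little. They comprise the Kv beta subunits Kcnab1 to Kcnab3 and the calcium-binding KChIP proteins Kcnip1 to Kcnip4, which assemble with Kv4 channels. The class median was -0.055 in clozapine minus control and -0.028 in haloperidol minus control. By their brightest probe sets, 0 of 7 had p under 0.05 in any comparison. Kcnip4 was the gene of this class with the smallest F test p, running from 7.37 to 9.44 (median 8.52) in control, 7.38 to 8.93 (median 8.16) in clozapine and 6.75 to 8.72 (median 7.63) in haloperidol mice. The groups overlapped, and haloperidol minus control was -0.45 (SE 0.29, limma p = 0.132). Kcnab3 differed by -0.055 (SE 0.12) and 0.084 (SE 0.12) from control in clozapine and haloperidol. For Kcnab1, Kcnab2, Kcnip1, Kcnip2 and Kcnip3 the clozapine difference lay between -0.12 (Kcnip1) and 0.11 (Kcnip3), and the haloperidol difference between -0.27 (Kcnip2) and 0.075 (Kcnab2).

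Inward rectifiers, 5 of the 13 on the array, included 1 gene with p under 0.05. Kcnj10, the Kir4.1 channel with which astrocytes take up potassium, ran from 7.47 to 7.99 (median 7.76) in control, from 7.24 to 7.92 (median 7.64) in clozapine and from 6.91 to 7.94 (median 7.62) in haloperidol mice. In this group 4 haloperidol mice lay below every control mouse, and the others overlapped. Haloperidol minus control was -0.29 (SE 0.12, p = 0.0268 before and 0.9999 after adjustment by limma; permutation p = 0.0394). The mean of 8 astrocyte markers had a median of 9.56 in both control and haloperidol mice, with highest values of 9.91 and 9.63, and its part in the Kcnj10 difference was not tested.

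The other inward rectifiers serve G protein signals and the resting potential. Kcnj3 and Kcnj6, the GIRK1 and GIRK2 subunits that open after activation of receptors such as D2, differed from control by -0.20 (SE 0.22) and -0.078 (SE 0.080) in clozapine. In haloperidol they differed by 0.048 (SE 0.22) and 0.0052 (SE 0.080). The interval for Kcnj6 in haloperidol minus control ran from -0.16 to 0.17, among the narrowest of the channel genes. Kcnj4, the strong rectifier Kir2.3 of forebrain neurons, had medians of 8.31, 8.07 and 8.47 in control, clozapine and haloperidol mice, but its lowest values were 3.35, 6.89 and 4.34. Kcnj9, the GIRK3 subunit, differed from control by -0.23 (SE 0.44) in clozapine and -0.10 (SE 0.44) in haloperidol.

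Two-pore potassium channels, 4 of the 8 on the array, carry leak current. Kcnk3, the acid-sensitive TASK-1 channel, ran from 5.54 to 6.68 (median 5.88) in control, 5.53 to 6.91 (median 6.37) in clozapine and 5.65 to 7.44 (median 6.09) in haloperidol mice. The groups overlapped. The difference from control was 0.34 (SE 0.20, limma p = 0.0972) in clozapine and 0.25 (SE 0.20, limma p = 0.220) in haloperidol. Kcnk1 and Kcnk13 had 0.17 (SE 0.12) and 0.20 (SE 0.13) in haloperidol minus control. Without haloperidol mouse 2 the differences of Kcnk3, Kcnk1 and Kcnk13 in that comparison were 0.11, 0.10 and 0.10. Kcnk2, the mechanosensitive TREK-1 channel, differed from control by -0.16 (SE 0.13) in clozapine and -0.10 (SE 0.13) in haloperidol. The class median in haloperidol minus control was 0.18, from these 4 genes.

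Calcium-activated potassium channels, 4 of the 9 on the array, had 0 genes with p under 0.05 by their brightest probe sets. Kcnma1, the BK channel pore, ran from 7.78 to 8.96 (median 7.91) in control, 3.38 to 9.20 (median 8.13) in clozapine and 5.59 to 9.41 (median 8.17) in haloperidol mice. Its clozapine median was above the control median, while the clozapine mean was lower by 0.59 (SE 0.53), and the 4 clozapine mice numbered 7 to 10 lay below every control mouse; without clozapine mouse 7 the difference was -0.13. Kcnn2, the SK2 channel of the afterhyperpolarisation, differed from control by 0.095 (SE 0.12) and 0.12 (SE 0.12). The accessory subunits Kcnmb2 and Kcnmb4 differed by -0.15 (SE 0.21) and 0.019 (SE 0.15) in clozapine. Both HCN genes on the array passed the threshold. Hcn2 differed by -0.24 (SE 0.14, limma p = 0.0974) in clozapine and -0.22 (SE 0.14) in haloperidol, and Hcn3 by 0.018 and 0.011 (SE 0.059 each). The within-group SD of Hcn3, 0.047, was the smallest of all probe sets tested, and whether its probe set follows the transcript was not tested.

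Calcium channel alpha1 subunits, 6 of the 9 on the array, held the gene with the smallest p-value among the brightest probe sets of the channel genes. Cacna1d, the L-type Cav1.3 channel that opens at low voltage and supports pacemaking in dopamine neurons, ran from 6.91 to 7.81 (median 7.17) in control, from 7.37 to 7.74 (median 7.56) in clozapine and from 6.72 to 7.66 (median 7.15) in haloperidol mice. All 10 clozapine mice lay above the means of both other groups, and the ranges overlapped because 3 control and 3 haloperidol mice reached the clozapine range. Clozapine minus control was 0.29 (SE 0.12, p = 0.0235 before and 0.9997 after adjustment by limma; permutation p = 0.0162), or 1.23-fold. Clozapine minus haloperidol was 0.34 (SE 0.12, p = 0.00885 before and 0.965 after adjustment by limma; permutation p = 0.00326).

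A second tested probe set of Cacna1d did not give this difference. It had a mean of 4.63. Fitted with no filter, it differed by -0.16 (SE 0.35) in clozapine minus control and by -0.066 (SE 0.35) in clozapine minus haloperidol. Leaving out each mouse in turn, the difference of the first probe set stayed between 0.26 and 0.36 against control.

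The other alpha1 genes did not pass an unadjusted p of 0.05. Cacna1c, the L-type Cav1.2 channel and a risk gene for psychiatric illness, ran from 5.77 to 6.57 (median 6.02) in control, 5.38 to 6.72 (median 5.89) in clozapine and 5.58 to 6.18 (median 5.90) in haloperidol mice, with differences of -0.17 (SE 0.13) and -0.13 (SE 0.13) from control. Cacna1a and Cacna1b, the P/Q-type and N-type channels of nerve terminals, differed by -0.029 (SE 0.20) and -0.60 (SE 0.49) in clozapine and by 0.12 (SE 0.20) and -0.13 (SE 0.49) in haloperidol. The T-type channels Cacna1g and Cacna1h, which support burst firing, were higher by 0.28 (SE 0.21) and 0.23 (SE 0.21) in the clozapine mean. All groups of these genes overlapped.

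Auxiliary calcium channel subunits showed 1 unadjusted p under 0.05 by their brightest probe sets. Cacna2d3, an alpha2delta subunit that brings channels to the membrane, ran from 9.17 to 10.04 (median 9.49) in control, 9.13 to 9.70 (median 9.38) in clozapine and 8.68 to 9.76 (median 9.25) in haloperidol mice. In all, 8 of 10 haloperidol mice were below the control mean, and the groups overlapped. Haloperidol minus control was -0.33 (SE 0.13, p = 0.0152 before and 0.9999 after adjustment by limma; permutation p = 0.0267). Cacna2d1, the gabapentin-binding subunit, differed by -0.21 (SE 0.52) in that comparison and Cacna2d2 by -0.020 (SE 0.28).

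The beta and gamma subunits had 0 of 7 genes with p under 0.05 by their brightest probe sets. Cacng4, a TARP that binds AMPA receptors, came closest, with 4.72 to 5.87 (median 5.26) in control, 4.17 to 5.58 (median 5.15) in clozapine and 4.37 to 5.61 (median 5.22) in haloperidol mice. In all, 9 of 10 clozapine mice were below the control mean, and the difference was -0.38 (SE 0.19, limma p = 0.0552). Cacng2, or stargazin, differed by -0.24 (SE 0.24), Cacng3 by 0.023 (SE 0.30) and Cacng5 by -0.072 (SE 0.33) in clozapine minus control. Cacnb1 and Cacnb4, beta subunits that carry the pore to the membrane, differed by 0.37 (SE 0.34) and -0.040 (SE 0.32) in that comparison, and Cacnb2 by -0.29 (SE 0.44).

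Sodium channel genes, 3 of 8 alpha subunits and Scn3b, had 0 with p under 0.05. Scn2a, the Nav1.2 channel of excitatory neurons, ran from 10.09 to 11.58 (median 10.54) in control, 8.11 to 11.62 (median 10.78) in clozapine and 8.92 to 11.82 (median 10.87) in haloperidol mice. Scn1a, the Nav1.1 channel of inhibitory interneurons, and Scn8a, the Nav1.6 channel of the axon initial segment, differed from control by -0.21 (SE 0.27) and -0.0051 (SE 0.16) in clozapine. In haloperidol they differed by -0.22 (SE 0.27) and -0.18 (SE 0.16), and Scn1a by 0.00089 without haloperidol mouse 2. The interval for Scn8a in clozapine minus control ran from -0.32 to 0.31, and the beta subunit Scn3b differed by 0.12 (SE 0.19).

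Genes of the channels' partners and genes below the threshold added no call. Of 39 listed proteins that anchor or modify channels, 20 were tested, and 0 were called and 0 had p under 0.05 in each comparison. Their median differences were 0.0015, -0.068 and 0.021 in clozapine minus control, haloperidol minus control and clozapine minus haloperidol. Of the 43 channel genes below the threshold, fitted with no filter, 2, 1 and 0 had p under 0.05 and 0 were called. Cacna1e, the R-type calcium channel pore, was among those below the threshold.

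Second probe sets often gave another sign. For 19 channel genes 21 further probe sets were tested, and the sign matched that of the first probe set in 12 of 21 for clozapine minus control, 14 for haloperidol minus control and 8 for clozapine minus haloperidol. In clozapine minus control the second probe set of Kcnma1 gave -1.55 (SE 0.62), that of Cacnb4 -1.25 (SE 0.44), that of Scn1a -1.14 (SE 0.85) and a further one of Kcnd2 -0.75 (SE 0.32). Each of these was larger in size than the difference of the brightest probe set of its gene. These 4 were picked after their values were seen, as was a Kcnip1 probe set with 0.52 (SE 0.19) in haloperidol minus control. The p-values given by class refer to the brightest probe sets alone. The values of the further probe sets came from the fit with no filter. In that fit Cacna1d had 0.29 (SE 0.11) in clozapine minus control by its brightest probe set. Relative to their SE, the differences of these Cacnb4 and Kcnip1 probe sets were larger than that. No probe set was called after adjustment in the main fit.

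The spread between mice of the same group was wide for part of the channel genes. The SD within groups had a median of 0.47 over the 53 genes, beside 0.44 over all probe sets tested, and ran from 0.047 for Hcn3 to 1.82 for Kcnh1. It was over 1 for 12 genes and under 0.3 for 13, which was not counted over all probe sets. Treatment groups took up a median of 4.99% of a channel gene's variance over the 30 arrays, beside 4.74% over all probe sets, and at most 27.6%, for Cacna1d. It was over 20% for 3 genes, Cacna1d, Kcna5 and Cacna2d3.

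Arrays that resembled each other took up more. Clustering the arrays on tested probe sets outside the channel genes gave groups of 12, 11 and 3 arrays and 4 arrays on their own: control 1, clozapine 7, haloperidol 2 and haloperidol 7. These 7 array groups took up a median of 62.3% of a channel gene's variance, beside 64.6% over all probe sets, and 7 groups take up more than 3 by their number alone. For 52 of 53 channel genes this share exceeded that of treatment, Cacna1d being the exception. It was over 80% for 14 genes, among them Kcnj4 (97.7%), Kcnh1 (95.9%), Kcnma1 (94.7%) and Scn2a (92.3%). Neither count was made over all probe sets.

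**Figure D3:**
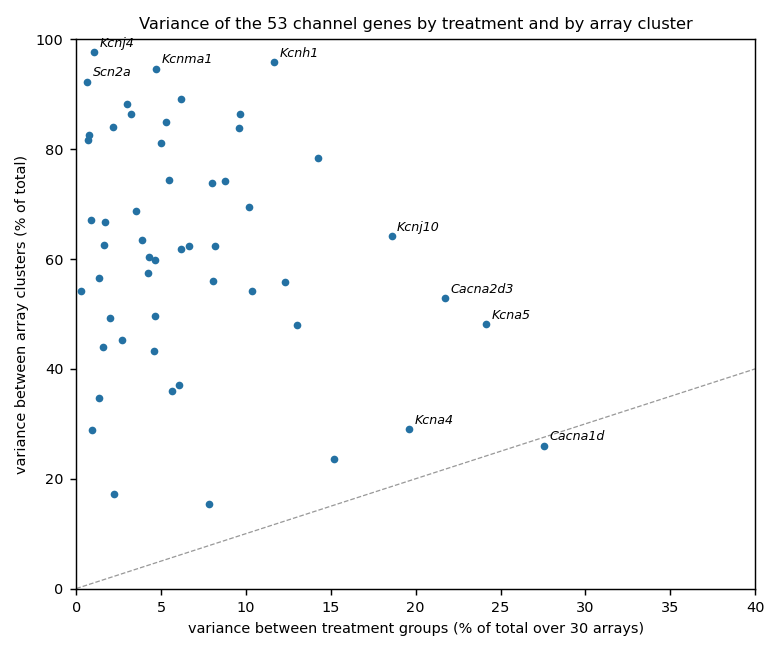
Share of variance over 30 arrays taken up by the 3 treatment groups (x axis, %) and by the 7 array clusters (y axis, %), 1 point per channel gene, with the line of equal shares dashed. All points but Cacna1d lie above the line, and Kcnj4, Kcnh1, Kcnma1 and Scn2a lie near its top, from 92.3% to 97.7%.

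The clusters mixed the treatments unevenly. The group of 12 held 6 control, 3 clozapine and 3 haloperidol arrays, the group of 11 held 3, 3 and 5, and the group of 3 held the clozapine arrays 8 to 10. Kcnh1 was 6.10 ± 0.34 (SD, n = 12) in the first, 8.44 ± 0.37 (n = 11) in the second and 3.63 ± 0.87 (n = 3) in the third, with no overlap. Scn2a was 10.43 ± 0.31, 11.54 ± 0.14 and 10.32 ± 0.43, and Kcnma1 7.98 ± 0.19, 8.93 ± 0.31 and 6.91 ± 0.69. Cacnb4 ran the other way between the first and second groups, with 10.20 ± 0.27, 9.31 ± 0.35 and 10.92 ± 0.21. All arrays of the second group were numbered 1 to 6.

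The 4 arrays on their own held many of the extreme values. Haloperidol 2 was the lowest or highest of the 30 arrays for 17 channel genes, control 1 for 13, clozapine 7 for 11 and haloperidol 7 for 10. The same was not counted over all probe sets, and these arrays stood apart on probe sets outside the channel genes. Control 1 and haloperidol 7 also had the largest gap between 3′ and 5′ probe sets for Gapdh and Actb, which widens as RNA degrades, with 4.09 and 2.45 on the log2 scale against 0.47 to 1.36 in the other 28 arrays. Kcnj4 was 3.35 and 4.34 on these 2 arrays and at least 6.89 on the others, and Kcnip2 was 2.84 and 3.75 against at least 5.18. Clozapine minus control for Kcnj4 was 0.22, and -0.28 without control 1. Haloperidol minus control for Kcnip2 was -0.27, -0.74 without control 1 and 0.078 without haloperidol 7. The share of variance that goes with the 3′ minus 5′ difference was 88.2% for Kcnj4 and 70.1% for Kcnip2. The median of this share was 13.8% over the 53 channel genes and 11.8% over all probe sets. Without control 1, haloperidol 2 and haloperidol 7, 0 channel genes were called in any comparison, and 5, 2 and 10 had p under 0.05 (11.4%, 2.9% and 17.8% of all probe sets).

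**Figure D4:**
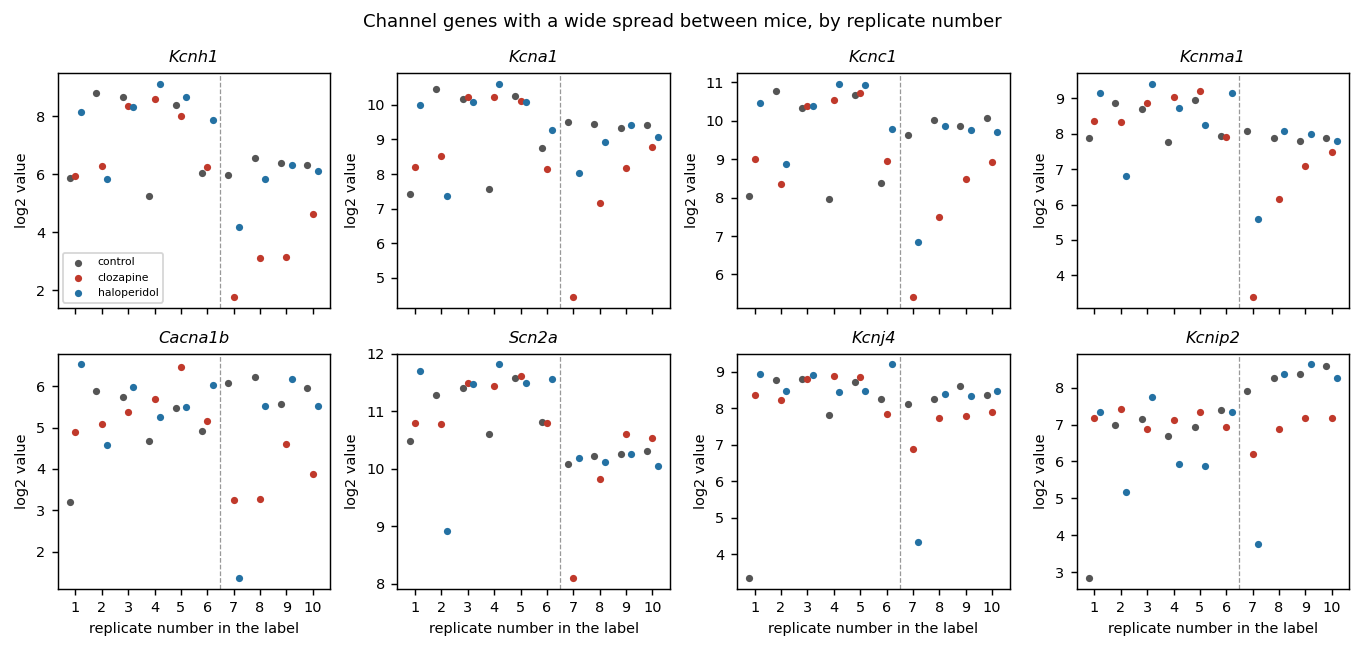
Log2 values (y axis) of 8 channel genes of wide spread against the replicate number in the labels (x axis), coloured by treatment; the dashed line parts numbers 1 to 6 from 7 to 10. Clozapine arrays 7 to 10 lie at 1.76 to 4.64 for Kcnh1, below control arrays 7 to 10 at 5.95 to 6.55, and Kcnj4 is low in control 1 and haloperidol 7.

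The differences were also computed within replicate numbers 1 to 6 and 7 to 10. The labels give the numbers no meaning, and comparisons within the sets were chosen after the values were seen. Within numbers 1 to 6, 0 channel genes were called in the 3 comparisons (0% of all probe sets in each, and 0.085% in clozapine minus haloperidol without the 4 arrays on their own). Within numbers 7 to 10, clozapine minus control called 3 of 53 channel genes, 5.66%, beside 4.94% of all probe sets called in either direction and 3.21% called lower. The 4 clozapine and 4 control arrays did not overlap for 21 channel genes (39.6%), beside 35.8% of all probe sets. Haloperidol minus control called 0 channel genes (0% of all) and clozapine minus haloperidol 0 (0.0541% of all).

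The 3 called genes were lower in clozapine. Kcnh1 was 1.76, 3.10, 3.15 and 4.64 in clozapine arrays 7 to 10 and 5.95, 6.55, 6.37 and 6.31 in control arrays 7 to 10, a difference of -3.14 (SE 0.79, limma adjusted p = 0.0223). Cacng4 was 4.17, 4.41, 4.90 and 5.26 against 5.86, 5.81, 5.69 and 5.87, a difference of -1.12 (SE 0.25, limma adjusted p = 0.0107). Kcna6 was 3.15, 3.08, 4.78 and 4.37 against 5.99, 6.90, 6.41 and 5.99, a difference of -2.48 (SE 0.74, limma adjusted p = 0.0468). With a mean of 4.30, Kcna6 was the least bright channel gene. It passed the threshold of 4 only with control arrays 7 to 10 counted, so its calls, also those with weighted arrays below, are not independent of the filter.

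In all 3 genes every clozapine array was below every control array of the set, on the same arrays that gave the calls. Of all probe sets, 35.8% did not overlap there in either direction. Within numbers 1 to 6 the same differences were 0.079 (SE 0.65) for Kcnh1, 0.11 (SE 0.21) for Cacng4 and 0.44 (SE 0.60) for Kcna6. The difference between the sets was called for 0 channel genes (1.43% of all probe sets), and without the 4 arrays on their own for 5 (11.9% of all, 6.05% lower): Cacna1b, Cacng4, Kcna2, Kcna6 and Kcnip2, all lower. Without these arrays, clozapine minus control within numbers 7 to 10 called 10 channel genes, all lower, or 18.9%, beside 19.6% of all probe sets called in either direction and 9.57% called lower. Their non-overlap was 43.4%, beside 48% of all. Clozapine minus haloperidol then called 7, all lower, or 13.2%, beside 15.7% in either direction and 7.5% lower, and the difference between the sets 3, all lower, or 5.66%, beside 9.8% and 5.49%.

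Other measures moved with the same arrays. The mean of 6 cortical neuron markers was 6.19 to 7.03 in clozapine arrays 7 to 10 and 7.54 to 7.92 in control arrays 7 to 10. Over the whole groups, 3 of these 6 markers were higher in clozapine than in control and 3 were lower. Camk2a (-1.50, SE 1.01) and Rorb (-0.99, SE 0.60) had by far the lowest differences. The mean of 8 neuron markers was 10.15 to 10.44 against 10.92 to 10.99 in these arrays 7 to 10. That of 20 channel partners was 8.00 to 8.33 against 8.55 to 8.59. That of the 4 tested genes of the cerebellar list, Cbln1, Calb1, Zic1 and Neurod1, was higher in clozapine, with 8.42 to 8.74 against 8.17 to 8.32. Gabra6, Cbln3, Pcp2 and Barhl1 of that list were below the threshold, and whether cerebellar tissue was present was not tested. The ranges of the other marker lists overlapped. The 3′ minus 5′ difference was 0.82 to 1.24 against 0.50 to 0.64. For these 4 lists and the 3′ minus 5′ difference the ranges did not overlap, as was so for 35.8% of all probe sets. Their part in the channel differences was not tested.

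The leading differences of the whole groups were not spread evenly over the sets. For Cacna1d, clozapine minus control was 0.19 (SE 0.15) within numbers 1 to 6 and 0.45 (SE 0.19) within 7 to 10. For Kcna5, haloperidol minus control was 0.43 (SE 0.26) and 0.80 (SE 0.32), positive in both sets. For Cacna2d3 it was -0.53 (SE 0.16) and -0.034 (SE 0.20), and for Kcnj10 -0.40 (SE 0.12) and -0.12 (SE 0.15). For Kcna4, clozapine minus control was -0.038 (SE 0.15) and -0.56 (SE 0.19), and haloperidol minus control -0.18 (SE 0.15) and -0.39 (SE 0.19). For Kcnq5, clozapine minus control was -0.23 (SE 0.19) and -0.47 (SE 0.23). No difference between the sets was called for any of these 6 genes.

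Weighting the arrays changed the count of calls. With limma's arrayWeights, which gives less weight to arrays that fit the group means poorly, 8 channel genes were called in clozapine minus control, 15.1% of 53, beside 13.4% of all probe sets. Of these, 7 were lower in clozapine (6.71% of all probe sets were called lower): Cacna1b by -1.11, Cacna2d1 by -1.23, Cacng4 by -0.64, Kcna4 by -0.40, Kcna6 by -1.87, Kcnj3 by -0.46 and Kcnq5 by -0.45. Cacna1d was higher, by 0.41 (6.67% called higher). The adjusted p of the 8 by limma ran from 0.0091 to 0.049, and the F test also called 8 channel genes, beside 7.47% of all. This fit gave control arrays 7 to 10 weights from 3.44 to 4.86, the highest of the 30. Clozapine weights were 0.62 to 1.66 in numbers 1 to 6 and 0.62 to 1.69 in 7 to 10. Only the control side thus leaned on numbers 7 to 10, and the weighted comparison mixed replicate set with treatment. For Kcna6 the control mean was 3.355 in numbers 1 to 6 and 6.32 in 7 to 10, and the clozapine means were 3.80 and 3.84. It called 0 channel genes in haloperidol minus control and in clozapine minus haloperidol.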

How the data were processed

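The deposited values are GCRMA signals on a log2 scale, 1 per probe set and array, per the submitters' processing notes. Its version is not given in the sources used here. GCRMA corrects background with the help of probe sequence, normalizes between arrays and summarises probes. Total RNA was extracted with Trizol, per the labels' protocols. Array medians lay between 4.63 and 4.88, and the number of arrays limits the precision.

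Of 22626 probe sets other than controls, 12944 had a mean of at least 4 and entered a linear model in limma (version 3.58.1, under R 4.3.3) with eBayes moderation (all 30 arrays, a mean per group, 27 residual degrees of freedom, two-sided, Benjamini-Hochberg adjustment). The fit was tested on simulated data. Permutation tests used 100000 permutations of the group labels, two-sided. Symbols came from the platform annotation and, for the channel genes, did not differ from RefSeq. Levels of different probe sets were not compared.

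The channel genes and the lists were chosen with earlier results of these data known. Genes were named where called, where among the 5 smallest p-values per direction and comparison, among the 5 largest or 5 smallest within-group SDs, smallest in F test p in a class, or on a list of 29 well-known channels, some of which are not reported here; further names were chosen after their values were seen. Alternatives covered the filter, normalization, array weights, blocks, RNA quality, arrays left out and probe sets. Replicate numbers were checked for pairing: the deviations of same-numbered arrays correlated by -0.50 to 0.80 (median 0.16), with 17 of 30 pairs over 0.1. Arrays of some numbers were thus alike and those of others were not. The labels give the numbers no meaning, and the main fit did not use them as pairs.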

Additional observations from a re-analysis of the deposited data

Results flagged for a closer look

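Among 40 named channel genes in 3 groups of 10 mice, 18 of 120 groups held a mouse whose gap to the nearest other exceeded Dixon's 95% limit. The arrays clozapine 7, control 1, haloperidol 2 and haloperidol 7 held 15 of the 18. Chance flags about 1 in 20 independent groups of genes not chosen by their values. Part of the 40 genes were named for their spread or p-values, and all share the same arrays, so that rate is no yardstick here. The rate over all probe sets was not computed.

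Control 1 was lowest for Cacna1b (log2 value 3.196), Hcn3 (6.53), Kcnip2 (2.84) and Kcnj4 (3.35). Clozapine 7 was lowest for Kcna1 (4.44), Kcnip2 (6.21), Kcnma1 (3.38) and Scn2a (8.11). Haloperidol 7 was lowest for Cacna1b (1.37), Kcnc1 (6.85) and Kcnj4 (4.34), and highest for Kcnn2 (8.25). Haloperidol 2 was highest for Cacna1h (8.23) and Kcnk3 (7.44), and lowest for Scn1a (7.71). Clozapine 1 was highest for Cacna1a (5.41), clozapine 3 was highest for Kcnk13 (5.05), and control 5 was lowest for Scn3b (8.19). Kcnj4 had the largest gaps, 0.821 of the range in control and 0.824 in haloperidol.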

How the results depend on the processing

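The count of 0 called channel genes held in all 3 comparisons with no filter, with a mean of at least 5, after quantile normalization, with the replicate set or the array cluster in the fit, with RNA quality as a covariate, without the 3 arrays that stand apart, with only the groups compared, and without each array in turn. It did not hold with arrayWeights (clozapine minus control, 8 channel genes and 1731 probe sets; F test, 8 channel genes), nor within numbers 7 to 10, chosen after the values were seen (clozapine minus control, 3 and 640; clozapine minus haloperidol, 0 and 7). Without the 4 arrays that cluster alone these became 10 and 2539, and 7 and 2036, and numbers 1 to 6 gave 0 and 11 in clozapine minus haloperidol.

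Without 1 array, 0 were called in all 30 fits, and the channel median ran from -0.13 to -0.060, from -0.077 to 0.046 (above 0 without haloperidol 7) and from -0.093 to -0.0019 in clozapine minus control, haloperidol minus control and clozapine minus haloperidol. Quantile normalization put the haloperidol minus control median at -0.00014 and the cluster block at 0.0091, above 0 with 28 of 53 higher. RNA quality as a covariate put the clozapine minus haloperidol median at 0.00014, also above 0. The cluster block moved the median of the calcium channel beta subunits in clozapine minus haloperidol from 0.22 to -0.43, from 3 genes. The differences with an unadjusted p under 0.05, of Cacna1d, Kcnq5, Kcna4, Kcna5, Cacna2d3, Kcnj10 and Kcnh2, kept their sign without each array in turn and under the 10 other settings. With the replicate block, 0 channel genes were called in each comparison. Of the 30 arrays, 4 correlated best with their own number, and the labels do not say what arrays of a number share. The spread between mice limits what could be detected: the interval of Kcnh1 in clozapine minus control ran from -2.78 to 0.37.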
